A study of Mus musculus with 15 samples.

Results

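The integrated stress response and its secreted products were followed in the left ventricle of mice with chronic kidney disease through 10 genes: Atf4, Ddit3, Trib3, Asns, Psat1, Mthfd2, Shmt2, Chac1, Gdf15 and Fgf21. The genes were chosen by name as regulators, enzymes and hormones of that response. All 10 were found among the 55487 genes of each deposited table, and 9 had enough counts for the test across 20718 genes. The tissue was left ventricular free wall, taken at its midline from males aged 225 days. The animals were 7 mutants for Col4a5, a collagen IV gene, with kidney disease and 8 wild-type littermates without that mutation, and each library is a biological replicate by the study's design. Knockdown and knockout are both used for the Col4a5 allele, and the anaesthetic is isoflurane in the sample titles but ketamine/xylazine in the protocol. All animals ate normal chow, and by that age the mutants are described as having reached an equivalent of late-stage human kidney disease.

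In the integrated stress response, kinases that sense amino acid shortage, unfolded protein, viral RNA or heme and mitochondrial stress phosphorylate the initiation factor eIF2. General translation then falls while ATF4 is translated more, through upstream reading frames in its mRNA. ATF4 raises genes of amino acid supply, serine synthesis and mitochondrial folate metabolism, and also Ddit3, Trib3 and Chac1. In heart and skeletal muscle with failing mitochondria the same programme is known to include the circulating hormones GDF15 and FGF21, called mitokines. Because ATF4 is controlled largely at translation and the response by phosphorylation, mRNA levels report on its output and not on the signal itself.

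ATF4 binds with C/EBP partners at composite sites, so the promoters of the members were searched for the shared core TGATGNAA, to show which members carry a letter match near the start site. The windows ran from 250 bases before to 50 after each RefSeq start site (GRCm38.p6), and all 10 members had a window, 12 in all. The core was found on either strand in 4 of the 10 members, Asns, Chac1, Trib3 and Fgf21, and in 3.97% of 32851 promoter windows of the same length. The stretches of 30 bases below are read 5′ to 3′ along the gene, with the 8 matching bases in capitals. In Chac1, Trib3 and Fgf21 the capitals hold the core on the opposite strand.
Asns: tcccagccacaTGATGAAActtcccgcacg
Chac1: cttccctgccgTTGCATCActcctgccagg
Trib3: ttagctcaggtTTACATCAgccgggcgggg
Fgf21: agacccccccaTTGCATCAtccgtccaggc
The Asns match lay at chr6:7693225-7693232 on the minus strand, 23 to 16 bases before the RefSeq start, within an exon of the longer GENCODE M21 gene. The Chac1 match lay at chr2:119351049-119351056, upstream of the gene, and the Fgf21 match at chr7:45615622-45615629, from offset -139 to -132. The Trib3 match lay at chr2:152344039-152344046, from 14 to 21 bases after the RefSeq start and upstream of the GENCODE gene. The cyclic AMP response element TGACGTCA (1.79% of all windows) and the endoplasmic reticulum stress element (0.119%), both searched on either strand, were found in no member window. These are letter matches within the windows and say nothing on binding.

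Library totals ran from 48748379 to 65519279 counts. Col4a5 itself was at 9.19 to 16.2 CPM (gene counts scaled to a common library size, with TMM factors) in kidney disease against 50.4 to 65.7 CPM in wild type, so every library matched its label. All 8 cardiomyocyte markers were present, the lowest of them, Tnni3, at a mean of 3502 CPM. The gene with most counts was mt-Co1 in 10 libraries and Ttn in the other 5, which were wild type 6 and 7 with kidney disease 4, 5 and 7. The library of kidney disease 6 stood apart across the genome: it was the highest of the 15 for 20.8% of all genes tested, followed by wild type 7 with 16.2%, while the other libraries were highest for 3.74% to 7.40%. Log2 changes of the tested members are therefore given with and without kidney disease 6. Those without wild type 7 are not listed by member, and the lowest edgeR adjusted p of a member there was 0.099 (Trib3).

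No member passed the test between kidney disease and wild type. By edgeR's quasi-likelihood test with Benjamini-Hochberg adjustment over all genes, 0 of 9 tested members were higher, against 0.811% of all genes, and 0 were lower, against 0.473%, or 1.28% in both directions together. The count was also 0 by DESeq2 and by limma-voom, which called 3.74% and 1.22% of all genes. Each of the 3 tools gave 1 member, Trib3, at an unadjusted p below 0.05, where 12.4% of all genes lay by edgeR and 6.84% lay there and were higher. The 95% intervals set bounds on what the data allow. Shmt2 is held within -0.13 and 0.06 on the log2 scale, while Chac1 may have changed by anything from -0.49 to 0.78. In bulk tissue, fewer cells of a type and less RNA per cell cannot be told apart.

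**Figure D1:**
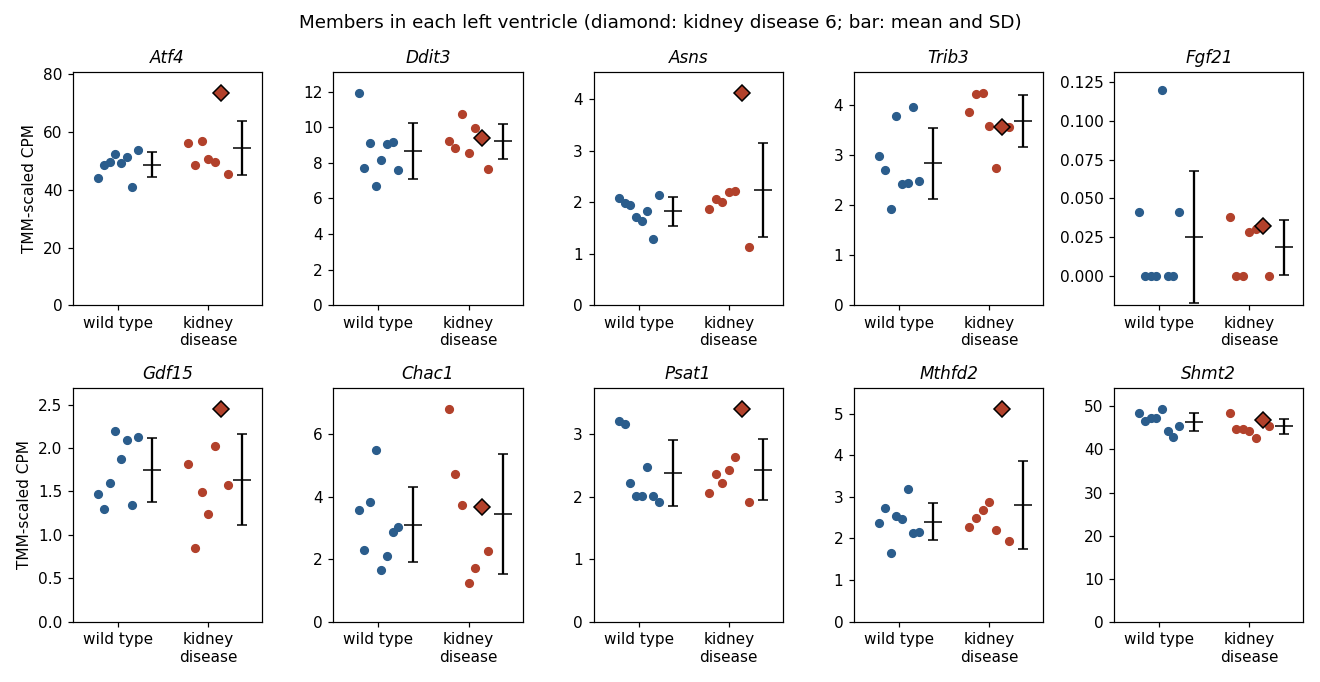
TMM-scaled CPM of each member in every left ventricle, wild type in blue (n = 8) and kidney disease in red (n = 7), with mean and SD as black bars. The diamond is kidney disease 6, which was the highest of all 15 libraries for Atf4, Asns, Gdf15, Psat1 and Mthfd2.

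Of the regulators, Atf4 (ENSMUSG00000042406, chr15:80255184-80257541, GRCm38) encodes the transcription factor at the centre of the response. It ranged from 45.4 through a median of 50.7 to 73.5 CPM in kidney disease and from 40.9 through 49.4 to 53.7 CPM in wild type. The groups overlapped, with 3 of 7 kidney disease animals above the highest wild type and 2 of 8 wild types below the lowest kidney disease animal. Atf4 had means of 54.5 ± 9.35 (SD, n = 7) and 48.7 ± 4.30 CPM (SD, n = 8), and a log2 change of 0.16 (SE 0.09, 95% interval -0.02 to 0.34, edgeR adjusted p = 0.49). Its log2 change was 0.07 (SE 0.07) without kidney disease 6, and 0.25 (SE 0.10, edgeR adjusted p = 0.27) within the libraries led by mt-Co1.

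Ddit3 (ENSMUSG00000025408, chr10:127290774-127296288) encodes CHOP, the factor tied to cell death under lasting stress. It lay at 7.68, 9.24 and 10.8 CPM (lowest, median, highest) in kidney disease and 6.72, 8.62 and 11.9 CPM in wild type. The highest library of all was wild type 1. The log2 change of Ddit3 was 0.09 (SE 0.10, edgeR adjusted p = 0.82), and 0.08 without kidney disease 6. Of its 1713 exon bases, 105 are shared with a second annotated gene of the same symbol, which had 0 counts in every library, and 68 lie under exons of Mars on the opposite strand.

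Trib3 (ENSMUSG00000032715, chr2:152337422-152344032) encodes a pseudokinase that is raised by ATF4 and CHOP and restrains Akt signalling. It stood at 2.74, 3.58 and 4.24 CPM in kidney disease and 1.92, 2.59 and 3.96 CPM in wild type, on 89 to 251 counts per library. All kidney disease animals but kidney disease 5 lay at 3.56 CPM or more, a level reached by wild type 4 (3.78 CPM) and wild type 7 (3.96 CPM), and the other 6 wild types were at 2.99 CPM or less. Its means were 3.68 ± 0.511 (SD, n = 7) and 2.84 ± 0.705 CPM (SD, n = 8). The log2 change of Trib3 was 0.37 (SE 0.15, 95% interval 0.07 to 0.68), the largest estimate among the 9 members, with edgeR unadjusted p = 0.019 and adjusted p = 0.27. Over 26 alternative analyses its adjusted p ran from 0.099, without wild type 7, to 0.43, so it passed in none. It was higher than the wild-type mean in 6 of 7 animals, and kidney disease 6 did not stand out (3.56 CPM; log2 change 0.38 without it). Within the libraries led by mt-Co1 the log2 change of Trib3 was 0.55 (SE 0.16, edgeR adjusted p = 0.17).

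**Figure D2:**
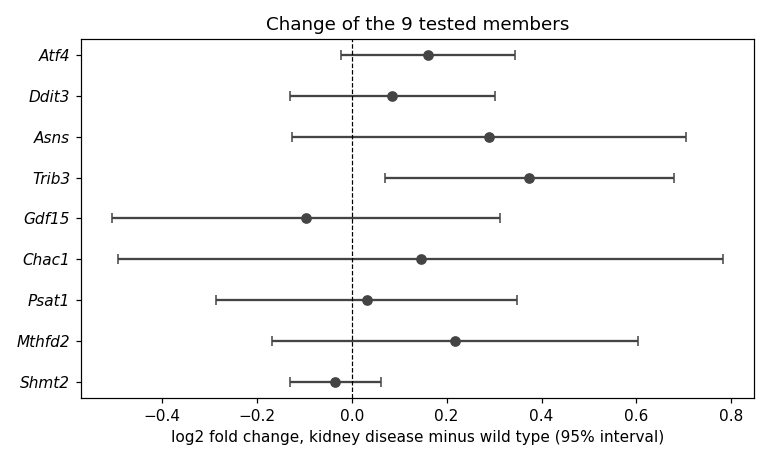
Log2 fold change, kidney disease minus wild type, of the 9 tested members with 95% intervals from the edgeR fit. The interval of Trib3 alone lies above 0, from 0.07 to 0.68, before adjustment over all genes, and that of Shmt2 is the narrowest.

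Among the enzymes of amino acid and folate metabolism, Asns and Mthfd2 stood out in 1 animal, kidney disease 6. Asns (ENSMUSG00000029752, chr6:7675169-7693254), which encodes asparagine synthetase, was at 1.14, 2.06 and 4.12 CPM in kidney disease and 1.29, 1.89 and 2.15 CPM in wild type. The highest value belonged to kidney disease 6 and the lowest of all to kidney disease 7. The next highest kidney disease animal had 2.22 CPM, close to the highest wild type. Its log2 change was 0.29 (SE 0.20, edgeR adjusted p = 0.62) with all animals, and 0.07 (SE 0.16) without kidney disease 6.

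Mthfd2 (ENSMUSG00000005667, chr6:83305691-83325908) encodes a mitochondrial folate dehydrogenase and cyclohydrolase that is low in most adult tissues. It ranged over 1.94, 2.50 and 5.10 CPM in kidney disease and 1.66, 2.42 and 3.19 CPM in wild type. Apart from kidney disease 6, every kidney disease animal lay at 2.87 CPM or below, within the wild-type range. The log2 change of Mthfd2 was 0.22 (SE 0.18, edgeR adjusted p = 0.71) and became 0.0045 (SE 0.14) without that animal. Within the libraries led by mt-Co1, which include it, the value was 0.44 (SE 0.22).

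Psat1 (ENSMUSG00000024640, chr19:15904678-15947337) encodes phosphoserine aminotransferase, a step of serine synthesis. Its values were 1.92, 2.36 and 3.40 CPM in kidney disease and 1.92, 2.12 and 3.21 CPM in wild type, and the ranges covered each other almost fully. The log2 change was 0.03 (SE 0.15, edgeR adjusted p = 0.97), and -0.07 without kidney disease 6. A processed pseudogene, Gm12611, matched Psat1 transcripts at 91.0% identity over 1056 bases and held a mean of 0.80 counts per library.

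Shmt2 (ENSMUSG00000025403, chr10:127517123-127522444) encodes the mitochondrial serine hydroxymethyltransferase, which feeds serine carbon into the folate pool. It was at 42.8, 44.8 and 48.5 CPM in kidney disease and 42.9, 46.9 and 49.3 CPM in wild type. The spread between animals was small, with SDs of 1.85 (n = 7) and 2.12 CPM (n = 8), and the groups covered the same range. Its log2 change was -0.03 (SE 0.05, 95% interval -0.13 to 0.06, edgeR adjusted p = 0.84), and -0.04 without kidney disease 6. Exons of Ndufa4l2 on the opposite strand share 32 of its 3109 exon bases.

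Chac1 (ENSMUSG00000027313, chr2:119351229-119354381) encodes a glutathione-degrading enzyme that is among the most inducible targets of the pathway. It varied more than any other tested member, from 1.24 through 3.66 to 6.80 CPM in kidney disease and from 1.65 through 2.95 to 5.50 CPM in wild type. Among the kidney disease animals its coefficient of variation came to 55.8%, and among the wild types to 39.0%. The highest libraries were kidney disease 1 and wild type 4, and the lowest were kidney disease 4 and wild type 5. In kidney disease the 3 libraries led by Ttn had the 3 lowest values, 1.24 to 2.26 CPM, below the 4 led by mt-Co1, at 3.66 to 6.80 CPM. Wild types did not divide this way: those led by Ttn had 2.11 and 2.88 CPM, within the range of 1.65 to 5.50 CPM of those led by mt-Co1. Chac1 had a log2 change of 0.15 (SE 0.30, edgeR adjusted p = 0.91), and of 0.51 (SE 0.27, adjusted p = 0.44) within the libraries led by mt-Co1. Without kidney disease 6 it was 0.13.

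The mitokine genes were low and did not separate the groups. Gdf15 (ENSMUSG00000038508, chr8:70629393-70632456), which encodes a hormone of the TGF-beta family that curbs appetite, had 48 to 151 counts in the kidney disease libraries and 72 to 121 in those of wild type. That came to 0.852, 1.57 and 2.45 CPM (lowest, median, highest) in kidney disease and 1.30, 1.73 and 2.20 CPM in wild type. Kidney disease held both the highest library, kidney disease 6, and the 2 lowest, kidney disease 2 and 4. The log2 change of Gdf15 was -0.10 (SE 0.20, 95% interval -0.51 to 0.31, edgeR adjusted p = 0.91), and -0.22 without kidney disease 6.

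Fgf21 (ENSMUSG00000030827, chr7:45613886-45615490) encodes a fasting and stress hormone made chiefly by liver. It had 2 counts in each of 4 kidney disease libraries and 0 in the other 3. In wild type it had 2 counts in wild type 1 and 8, 6 in wild type 5 and 0 in the other 5. It was too low for the fit across genes, and the exact permutation test of mean CPM over 6435 splits gave p = 0.80 (two-sided). The sums were 8 counts over the kidney disease libraries and 10 over wild type. A count of 0 allows up to 3 counts, or 0.0458 to 0.0615 CPM depending on the library, and this limit covers counting error only. Every Fgf21 count above 0 was even, and if both reads of a pair were counted the limit would be higher. The smallest p this test allows is 0.00016, and no difference in Fgf21 was detected.

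Per kilobase of exon, the order of the members' levels in wild type was led by Atf4 at 20.7 ± 1.82 CPM per kilobase (SD, n = 8), then Shmt2 at 14.9 ± 0.682 and Ddit3 at 5.07 ± 0.917. These did not overlap between animals, nor did Ddit3 overlap with the next, Chac1 at 1.90 ± 0.740. Below came Trib3 at 1.34 ± 0.332, Gdf15 at 0.945 ± 0.198, Mthfd2 at 0.689 ± 0.130, Asns at 0.668 ± 0.102 and Psat1 at 0.560 ± 0.125 CPM per kilobase. Each of these 5 overlapped with its neighbours in that order, except that Psat1 did not overlap with Fgf21. Fgf21, at 0.0265 ± 0.0446 CPM per kilobase, was the lowest.

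**Figure D3:**
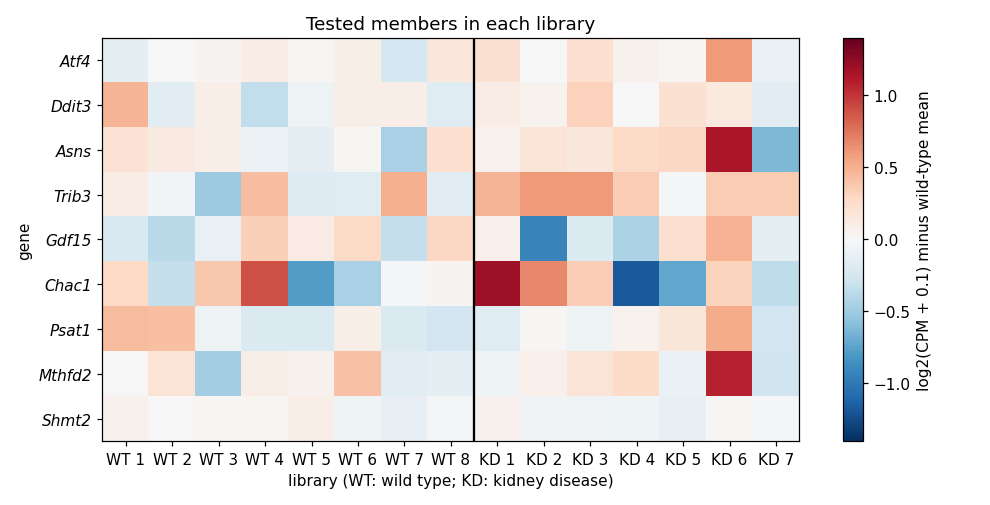
Log2(CPM + 0.1) of each tested member minus its wild-type mean, in each of the 15 libraries. The column of kidney disease 6 is red for Asns and Mthfd2, with Atf4, Gdf15 and Psat1 less so, while Chac1 is high and low in both groups.

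Among animals, the members were compared by their highest library and by co-variation with Atf4, and not otherwise with each other. Kidney disease 6 was the highest library for 5 of 9 tested members, beside 20.8% of all genes. In that animal, the 8 macrophage markers summed to 481 CPM, the highest of all, and the summed cardiomyocyte markers were the lowest of all. Its sums of endothelial markers (814 CPM) and of smooth muscle and pericyte markers (761 CPM) ranked number 2 from the highest. Its sums of atrial, adipocyte and erythroid markers were the lowest of all. Summed macrophage markers ranged from 341 to 481 CPM in kidney disease, above the wild-type range of 239 to 298 CPM. Of the 8, 6 rose, and none was at 0 in all libraries. Of 5 B cell markers 4 rose, and their sums were 13.8 to 20.2 CPM against 6.21 to 12.7 CPM, with 19.0 CPM in kidney disease 6. Of 6 fibroblast markers 2 rose, and their sums overlapped between the groups (757.5 to 918 against 683 to 834 CPM), with kidney disease 6 the lowest of its group. Their part in the members' values was not tested.

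Co-variation with Atf4 was measured on log2(CPM + 0.1) after removing each group's mean, over 15 libraries and 8 members. Asns had Pearson r = 0.77 (permutation p = 0.0071, adjusted p = 0.057) and Spearman rho = 0.40 (permutation p = 0.15, adjusted p = 0.40). Mthfd2 had r = 0.69 (permutation p = 0.024, adjusted p = 0.065) and rho = 0.44 (permutation p = 0.12, adjusted p = 0.40). Gdf15 had r = 0.65 (permutation p = 0.022, adjusted p = 0.065) and rho = 0.65 (permutation p = 0.013, adjusted p = 0.11). No relation passed adjustment over the 8. Without the 2 libraries farthest from the median of Atf4, kidney disease 6 and wild type 7, r was 0.30 for Asns, 0.22 for Mthfd2 and 0.43 for Gdf15, over a narrower range of Atf4. Without kidney disease 6 alone r was 0.51 for Asns, 0.29 for Mthfd2 and 0.50 for Gdf15 (permutation adjusted p = 0.31, 0.54 and 0.31). Within the 10 libraries led by mt-Co1, r was 0.70 for Asns, 0.64 for Mthfd2 and 0.87 for Gdf15 (permutation adjusted p = 0.44, 0.44 and 0.13), and 5 libraries led by Ttn were too few. The other 5 members had r between -0.17 and 0.38, with Ddit3 at -0.09 and Trib3 at -0.17.

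Of 14584 genes with a mean above 1 CPM, those with patterns most like Atf4 over the 15 libraries were A430005L14Rik (r = 0.92), Metrn (r = 0.92), which encodes the secreted protein meteorin, and Ugp2 (r = 0.91), which makes UDP-glucose for glycogen. Without kidney disease 6 their r was 0.82, 0.89 and 0.86. Asns ranked 576, Mthfd2 1504 and Gdf15 1883 in likeness to Atf4.

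The wider pathway was followed through 8 lists holding 164 distinct genes, of which 156 were tested. Of these 1 rose and 0 fell by edgeR, against 0.811% and 0.473% of all genes. Of the 156, 76 lay above 0 and 80 below, and the median log2 change was -0.006 beside 0.004 over all genes. At an unadjusted p below 0.05 there were 11 higher and 12 lower of 156, where all genes gave 6.84% and 5.55%. DESeq2 gave 4 adjusted calls (Nupr1, Gclc, Aldh1l1 and Hspd1), against 3.74% of all genes by that tool. The call by limma-voom was Nupr1, against 1.22%.

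**Figure D4:**
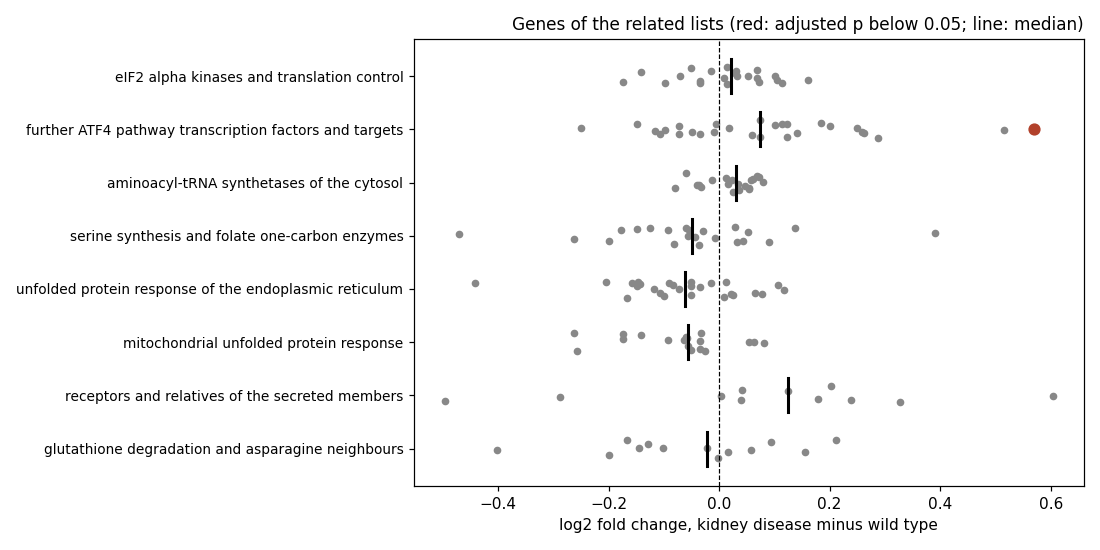
Log2 fold change, kidney disease minus wild type, of each tested gene of the 8 related lists, with the list median as a black line. The red point is Nupr1 at 0.57, and the list medians lie between -0.06 and 0.12.

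The gene that rose was Nupr1, a stress-induced chromatin protein that acts with the pathway, from the list of further ATF4 pathway factors and targets. It lay at 2.92, 3.93 and 4.34 CPM in kidney disease and 1.93, 2.52 and 3.27 CPM in wild type. Every kidney disease animal was above the wild-type mean, and 6 of 7 were above the highest wild type. Nupr1 had a log2 change of 0.57 (SE 0.12, edgeR adjusted p = 0.029). The adjusted p of Nupr1 ran from 0.00105 by DESeq2 to 0.15 in the mt-Co1-led libraries alone. It was 0.068 with the replicate number as a block. With 1 library left out it passed in 7 of 15 fits and failed in 8, those that left out kidney disease 4, 5, 6, 7 and wild type 3, 4, 5, 6, where the adjusted p reached 0.064. The macrophage and B cell markers above, and 2 of the 6 fibroblast markers, moved in the same direction as Nupr1, and their part was not tested.

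In that list of 28 tested genes, 17 lay above 0 and the median was 0.07. Atf5, a relative of Atf4 linked to mitochondrial stress, had 48.8, 60.6 and 73.1 CPM in kidney disease and 34.5, 51.6 and 55.6 CPM in wild type. Its log2 change was 0.29 (SE 0.09, edgeR adjusted p = 0.17). The adjusted p of Atf5 was 0.027 with the leading gene as a covariate and 0.043 in the mt-Co1-led libraries alone. Gpt2, an alanine aminotransferase, had -0.25 (SE 0.08, edgeR adjusted p = 0.18), and its adjusted p was 0.018 without wild type 7.

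The list of eIF2 kinase and translation control genes showed 0 calls among 22, with a median of 0.02. The kinase genes Eif2ak1 to Eif2ak4 were among them. The genes with the smallest p were Dele1 (-0.14, SE 0.05, edgeR adjusted p = 0.22), the messenger of mitochondrial stress, Oma1 (-0.17, SE 0.08), the protease that cleaves it, and the eIF2B subunit gene Eif2b3 (0.16, SE 0.07). Dele1 was below the wild-type mean in 7 of 7 kidney disease animals and Oma1 in 6, while Eif2b3 was above it in 7 of 7. None of 20 cytosolic aminoacyl-tRNA synthetase genes, a family that includes ATF4 targets, passed, and none had an unadjusted p below 0.05. Their log2 changes were all between -0.08 and 0.08, with Vars1 (-0.08), Tars1 (0.08) and Nars1 (0.07) the first by p. For 13 of these 20 genes the highest library was kidney disease 6, against 20.8% of all genes. The same held for 11 of the 22 genes of the eIF2 kinase and translation control list. That library was highest for 5 of 28 further ATF4 pathway genes and 5 of 22 serine and folate genes. In the endoplasmic reticulum, receptor and glutathione lists below, the counts were 3 of 26, 2 of 11 and 5 of 13.

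Of 22 further genes of serine synthesis and folate metabolism, 0 passed by edgeR and 15 lay below 0, with a median of -0.05. Aldh1l1, a cytosolic folate dehydrogenase, was at 2.77 to 4.98 CPM in kidney disease against 4.28 to 5.74 CPM in wild type, with a log2 change of -0.47 (SE 0.12, edgeR adjusted p = 0.059). Its adjusted p was 0.0078 by DESeq2, 0.018 with the leading gene as a covariate and 0.028 without kidney disease 4. The mitochondrial folate carrier gene Slc25a32 (-0.20, SE 0.06, edgeR adjusted p = 0.14) lay below the wild-type mean in 7 of 7 animals. Tyms, the thymidylate synthase gene used in DNA synthesis, had 0.39 (SE 0.16, edgeR adjusted p = 0.29).

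Genes of protein-folding stress lay mostly below 0, and by edgeR none passed. In the endoplasmic reticulum list, 18 of 26 were below 0 with a median of -0.06, where 10120 of all 20718 genes were below 0. Wild type 8 was the highest library for 10 of the 26, against 3.74% of all genes. The chaperone gene Hyou1 (-0.21, SE 0.09), the ubiquitin ligase gene Syvn1 (-0.17, SE 0.07) and Dnajb9 (-0.16, SE 0.08) had the smallest p, and the lowest adjusted p in the list was 0.34. In the mitochondrial list, 15 of 18 were below 0 with a median of -0.06. The highest library was kidney disease 6 for 7 of the 18 and wild type 5 for 6, against 20.8% and 5.22% of all genes. The chaperonin gene Hspd1 was at 183 to 241 CPM in kidney disease against 193.4 to 291 CPM in wild type (log2 change -0.26, SE 0.08, edgeR adjusted p = 0.13). The adjusted p of Hspd1 was 0.041 by DESeq2 and 0.0165 without wild type 7. The protease gene Spg7 had -0.17 (SE 0.06, edgeR adjusted p = 0.18).

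Of the genes for receptors and relatives of the mitokines, several were barely counted. Gfral, the GDF15 receptor of the hindbrain, had a mean of 0.0012 CPM and Klb, the co-receptor of FGF21, of 0.16 CPM, and both stayed below the filter with Kl, Fgfr4, Fgf15 and Fgf23. The receptor gene Fgfr1 was at 48.5 to 62.2 CPM in kidney disease against 44.9 to 55.3 CPM in wild type (log2 change 0.18, SE 0.06, edgeR adjusted p = 0.18). Fgfr3 had 0.33 (SE 0.14) and Tgfb1 0.12 (SE 0.05), and 0 of 11 tested genes of that list passed. In the list around glutathione and asparagine, 0 of 13 passed by edgeR. Gclc, the rate-limiting enzyme of glutathione synthesis, lay at 14.8 to 18.9 CPM against 13.5 to 15.3 CPM (0.21, SE 0.06, edgeR adjusted p = 0.076), and 6 of 7 kidney disease animals exceeded the highest wild type. Its adjusted p was 0.035 by DESeq2, 0.042 with a filter of 1 CPM in 7 libraries, 0.028 with the leading gene as a covariate and 0.048 without kidney disease 7. Asrgl1 (-0.15, SE 0.06) and Ggct (-0.17, SE 0.07) did not pass.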

How the data were processed

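For each library the authors deposited whole counts per gene with CPM and FPKM values beside them. The submitters' processing notes name GRCm38 and the tools featureCounts 2.0.3, Subread, STAR 2.7.9a and bcl2fastq. How strand and read pairs were counted is not given in the sources used here. The deposited CPM and FPKM columns follow from the counts (relative tolerance 1e-06) and were not used further. Of counts from 1 to 10, 73.7% were even, so a count need not be an independent fragment. Per the labels' protocols, RNA was DNase-treated and libraries were depleted of ribosomal RNA. Over 49 within-group pairs of libraries, chi-square divided by its degrees of freedom was at least 9.16, so none was repeat sequencing of the same library. The check cannot exclude separate libraries from the same ventricle.

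Symbols came from GENCODE M21 for 55141 identifiers. Counts were filtered with filterByExpr (minimum count 10), scaled with TMM and tested by the quasi-likelihood test of edgeR 4.0.16 under R 4.3.3, with group as the only term, adjusted over all genes at 0.05. The steps were tested on simulated data. Members and lists were chosen with earlier results of these data known. The named genes are the members, the 3 genes with the smallest p in each list, Col4a5 and the 3 genes most like Atf4. The eIF2 kinase genes, the receptor and hormone genes below the filter and the cell markers were named outside this rule, after their values were seen. Permutations of co-variation used 100000 resamples within groups. Alternatives were DESeq2 1.42.0, limma-voom (limma 3.58.1), upper-quartile and RLE scaling, library totals for the Fgf21 test, other filters and removal of mitochondrial genes. Further alternatives were a replicate block, the leading gene as covariate or subset, and leaving out each library. Halved counts and co-variation without kidney disease 6 were added after seeing the data.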

Additional observations from a re-analysis of the deposited data

Results flagged for a closer look

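Each of the 10 members was searched in both groups, 20 sets of values in all, for a highest or lowest animal separated by a wide gap. Chance gives about 1 such set in 20 for values with a normal spread, and 5 were found. That rate need not hold for Fgf21, which had counts in only 3 wild types. Kidney disease 6 lay above the other kidney disease animals in Atf4 (73.5 CPM, next 57.1), Asns (4.12 CPM, next 2.22) and Mthfd2 (5.10 CPM, next 2.87). These are not independent of each other, since the same library was the highest for 20.8% of all genes. Wild type 1 had the highest Ddit3 of its group (11.9 CPM, next 9.18), with a gap of 0.5267 of the range, just past the limit of 0.526. Wild type 5 had the highest Fgf21 of its group (0.12 CPM), which rests on 6 counts.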

How the results depend on the processing

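In all 26 alternatives 0 members passed in either direction. Atf4, Ddit3, Asns, Trib3, Mthfd2 and Shmt2 kept their sign throughout. Chac1 was -0.018 by limma-voom, and ran from -0.11 to 0.31 with 1 library left out. Psat1 was -0.0022 with the replicate block and ran from -0.068 to 0.10 with 1 library left out, and Gdf15 from -0.22 to 0.013. The Fgf21 difference ran from -0.010 to 0.0067 CPM. Of the related genes, where 1 rose and 0 fell, DESeq2 gave 2 and 2, the filter of 1 CPM gave 2 higher, the leading gene as covariate gave 3 and 1, and the replicate block gave 0 higher. Leaving out 1 library gave 0 to 1 higher and 0 to 2 lower. Over all genes, 266 passed, 168 of them higher. This became 114 (63 higher) with the replicate block, 86 (50 higher) within libraries led by mt-Co1, 640 (379 higher) by DESeq2 and 523 (335 higher) with the leading gene as covariate. Without a filter on low counts 174 were higher and 65 lower. Leaving out 1 library gave 97 (without wild type 5) to 388 (without wild type 7). The causes were not tested. With the replicate block, the lowest adjusted p of a member was 0.34. Replicate numbers gave no uniform pairing of the animals: same-numbered pairs correlated from -0.262 to 0.494, with 3 of 7 above 0.1. Of the 7 kidney disease libraries, 3 correlated best with the wild type of their own number. Whether some numbers mark a shared origin was not tested. Correlation with Atf4 turned to 0.15 for Trib3, -0.43 for Psat1 and -0.015 for Shmt2 without the 2 farthest libraries, to -0.12 for Chac1 within libraries led by mt-Co1, and to -0.19 for Psat1 without kidney disease 6. The co-variation count was 0 in each. The members at 1 to 4 CPM rest on 48 to 360 counts, and the spread between animals limits their precision.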
